A study of Paralichthys olivaceus with 6 samples.

Results

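Purine metabolism and the carriage of urate and sugars were followed in flounder skin through 5 of the 22498 gene IDs of the count table. The 5 genes were chosen by ID. They are xanthine dehydrogenase (XDH, GS_014490), purine nucleoside phosphorylase (PNP, GS_021002), a pair of consecutive IDs that both carry the name SLC2A9 (GS_014684 and GS_014685), and SLC2A11 (GS_018011). The study had listed all 5 as changed in these same fish, so their direction is not independent evidence of a change. The skin came from the ocular side, the pigmented upper side of a flatfish, of 3 albino fish (PO_alb1, PO_alb2 and PO_alb3) and 3 wild type, normally pigmented fish (PO_con1, PO_con2 and PO_con3) of the Japanese flounder, Paralichthys olivaceus. All 6 fish were 5 months old and came from 1 full-sib family, with no treatment named for either group, and 1 RNA-seq library was made from each fish. The labels give albino or wild type as the genotype and name no allele or locus.

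The colour of fish skin comes from several kinds of pigment cell. Melanophores hold melanin, xanthophores hold pteridines and carotenoids, and iridophores hold reflecting platelets of crystalline guanine, a purine. XDH oxidises hypoxanthine to xanthine and xanthine to urate, and in Drosophila the same enzyme acts on pteridines of the eye pigment. PNP splits the nucleosides inosine and guanosine into a free purine base and a sugar phosphate, and in zebrafish pnp4a, a gene of this family, is a marker of iridophores. SLC2A9 is a urate transporter in humans, SLC2A11 is a sugar transporter of the same family, and slc2a11b of medaka takes part in the colouring of pigment cells.

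The names are matches of the flounder genes to proteins of other species, and another table of the study gives the SLC2A9 pair the name of a further member of the family, SLC2A5. The RefSeq annotation of the species (assembly ASM2471397v2) lists 1 xdh gene, 4 pnp genes (pnp4a, pnp4b, pnp5a and pnp6), 2 slc2a9 genes (slc2a9l1 and slc2a9l2) and 2 slc2a11 genes (slc2a11b and slc2a11l). It holds none of the IDs used here, so which of these genes each ID stands for was not determined. Reads shared between near-identical copies, or between overlapping genes on opposite strands, could have been counted to either or to neither. Levels are therefore those of the gene models as counted.

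The counts summed over all genes lay between 17905084 and 18631484 in the albino libraries and between 18232951 and 20025047 in the wild type libraries. They were scaled by TMM, which corrects for a few abundant genes taking a large share of a library, with factors of 0.792 to 1.05 in albino and 0.879 to 1.27 in wild type fish. Levels are given as CPM, read counts relative to the scaled library total, and fold changes as log2 of albino over wild type with the standard error (SE). Genes count as called here where the quasi-likelihood test of edgeR gave an adjusted p (Benjamini-Hochberg, 16260 genes tested) under 0.05, and all 5 genes were tested. The epidermal keratin KRT13 (GS_014679) was abundant in every library, with 6373 to 13746 counts in albino and 22040 to 49584 counts in wild type fish. Desmin (DES, GS_020318), a muscle filament protein, had 32289 to 39611 counts in albino and 14802 to 22684 counts in wild type skin, so the samples held RNA of muscle as well.

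All 5 genes had lower levels in each albino fish than in any wild type fish, a separation seen in 7.47% of the genes tested. At the adjusted threshold 3 of the 5 fell in albino skin, namely XDH, GS_014685 and SLC2A11, against 0.910% of all genes tested that were called lower and 0.129% that were called higher. PNP and GS_014684 did not pass, with log2 fold changes of -2.16 and -2.95. The median log2 fold change of the 5 genes was -3.12, and that of all genes tested was 0.01. In bulk skin, fewer cells of a type and less RNA per cell cannot be told apart.

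**Figure D1:**
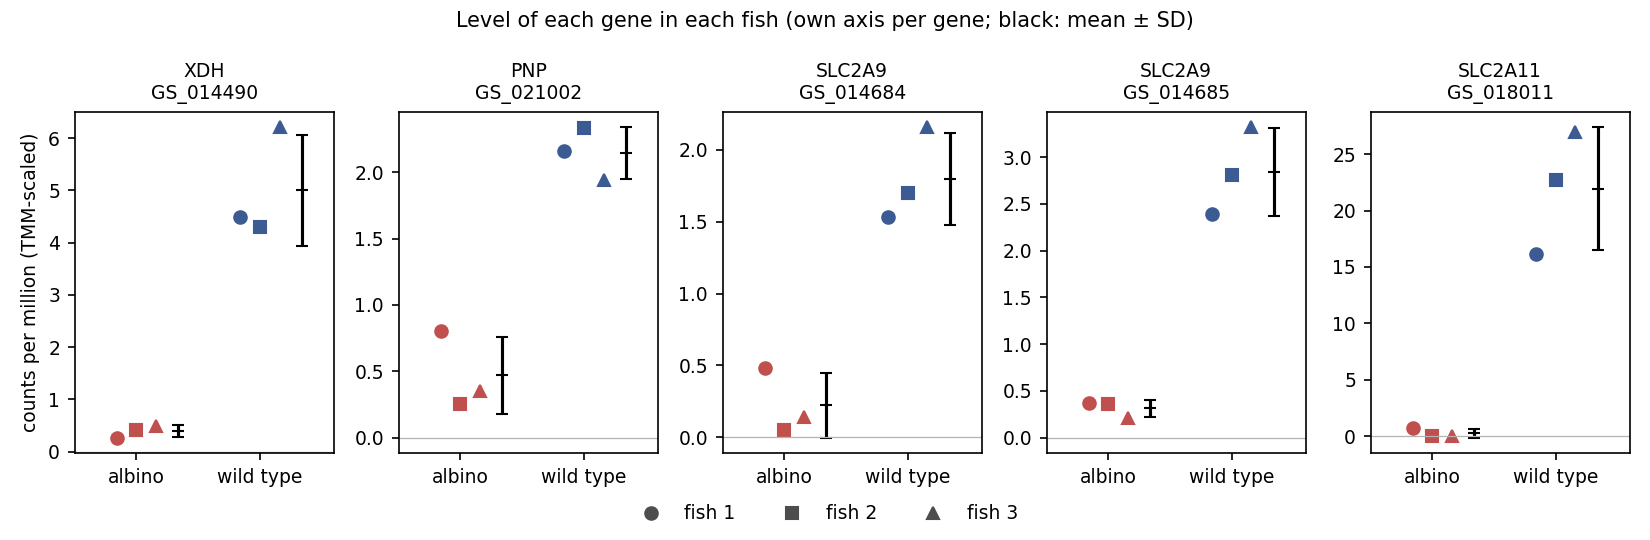
Level of each of the 5 genes in each fish, in CPM after TMM scaling, on a separate axis for each gene. Red points are the 3 albino fish, blue points the 3 wild type fish, the marker shape gives the fish number, and black bars are the mean ± SD. No albino point reaches the wild type points of its gene, and the gap is widest for SLC2A11, where albino fish lie between 0 and 0.694 and wild type fish between 16.1 and 27.0.

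Among the enzymes, XDH had the larger change. It had 5, 8 and 7 counts in PO_alb1, PO_alb2 and PO_alb3, against 79, 81 and 144 counts in PO_con1, PO_con2 and PO_con3. Scaled, these were 0.267, 0.410 and 0.489 CPM in the albino fish and 4.49, 4.29 and 6.21 CPM in the wild type fish. The albino fish lay close together, PO_con3 stood above the other wild type fish, and the lowest wild type level was 8.77 times the highest albino level. The mean was 0.389 ± 0.113 CPM in albino and 5.00 ± 1.06 CPM in wild type fish (SD, n = 3 each). The fitted log2 fold change was -3.69 (SE 0.31, adjusted p = 0.00127, edgeR). Ranked from the lowest fold change, XDH was number 62 of the 16260 genes tested. XDH was called without each library in turn, at log2 fold changes between -3.86 and -3.47.

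PNP, which yields hypoxanthine, a substrate of XDH, had 15, 5 and 5 counts in PO_alb1, PO_alb2 and PO_alb3, against 38, 44 and 45 counts in PO_con1, PO_con2 and PO_con3. Its levels were 0.800, 0.256 and 0.349 CPM in the albino fish and 2.16, 2.33 and 1.94 CPM in the wild type fish. The wild type fish were nearly level, with the highest only 1.20 times the lowest, while PO_alb1 stood 3.12 times above PO_alb2. The groups did not overlap, and the lowest wild type level was 2.43 times that of PO_alb1. The mean was 0.469 ± 0.291 CPM in albino and 2.14 ± 0.195 CPM in wild type fish (SD, n = 3 each). The log2 fold change of -2.16 (SE 0.41) missed the threshold (adjusted p = 0.0639, edgeR). Without PO_alb1 it was -2.82 and passed (adjusted p = 0.0314, edgeR), in a fit that called 0.569% of 16521 genes lower, and without any other single library it did not pass. PNP also passed with DESeq2 (adjusted p = 0.000554), which called 1.69% of the genes lower, with limma on log2(RPKM + 1) (adjusted p = 0.0325), which called 0.547% lower, and with edgeR on all genes with at least 1 read (adjusted p = 0.049), which called 0.798% lower.

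The transporters began with the SLC2A9 pair. GS_014684 had 9, 1 and 2 counts in PO_alb1, PO_alb2 and PO_alb3, against 27, 32 and 50 counts in PO_con1, PO_con2 and PO_con3. GS_014685 had 7, 7 and 3 counts in the same albino fish, against 42, 53 and 77 counts in the wild type fish. Both IDs were highest in PO_con3, and the albino fish were uneven for GS_014684 alone, where PO_alb1 held 9 of 12 albino reads. In CPM the means were 0.224 ± 0.227 in albino and 1.80 ± 0.323 in wild type fish for GS_014684, and 0.314 ± 0.0907 in albino and 2.84 ± 0.468 in wild type fish for GS_014685 (SD, n = 3 each). Neither ID had overlapping groups, and the lowest wild type level was 3.20 times the highest albino level for GS_014684 and 6.39 times for GS_014685.

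GS_014685 fell in albino skin (log2 fold change -3.12, SE 0.32, adjusted p = 0.0036, edgeR), and its call held whichever library was left out. GS_014684 had nearly the same log2 fold change, -2.95, with a larger SE of 0.56, and missed the threshold (adjusted p = 0.0669, edgeR). Without PO_alb1 the log2 fold change of GS_014684 was -4.23 (adjusted p = 0.026, edgeR), and without any other single library it was not called. GS_014684 passed with DESeq2 (adjusted p = 0.000208), with limma on log2(RPKM + 1) (adjusted p = 0.0321) and with edgeR on all genes with at least 1 read (adjusted p = 0.0492). When the counts of both IDs were summed into 1 row, a choice made after the data were seen, the pair had 0.538 ± 0.275 CPM in albino and 4.64 ± 0.787 CPM in wild type fish (SD, n = 3 each). The fitted log2 fold change of the summed row was -3.07 (SE 0.34, adjusted p = 0.00595, edgeR).

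Set against each other in wild type fish, the IDs of the pair had like levels per length. The gene lengths implied by counts and RPKM were 612 bases for GS_014684 and 879 bases for GS_014685, which are coding lengths, since 97.9% of the 20815 gene lengths are multiples of 3. Together they span 1491 bases or 497 codons, close to the 475 codons of SLC2A11. The share of the pair's reads that was counted to GS_014684 was 39.1%, 37.6% and 39.4% in PO_con1, PO_con2 and PO_con3, near its 41.0% share of the summed length. In the wild type fish the RPKM of GS_014685 was 1.07 to 1.15 times that of GS_014684.

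In albino fish the share on GS_014684 was 56.2% of 16 reads in PO_alb1 (exact 95% binomial interval 29.9% to 80.2%), 12.5% of 8 reads in PO_alb2 (0.316% to 52.7%) and 40.0% of 5 reads in PO_alb3 (5.27% to 85.3%). These intervals are wide and each holds every wild type share, so a difference between fish was not detectable at this depth. Summed over fish the share was 41.4% in albino (12 of 29 reads, 23.5% to 61.1%) and 38.8% in wild type skin (109 of 281 reads, 33.1% to 44.8%). Such intervals cover counting error only.

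**Figure D2:**
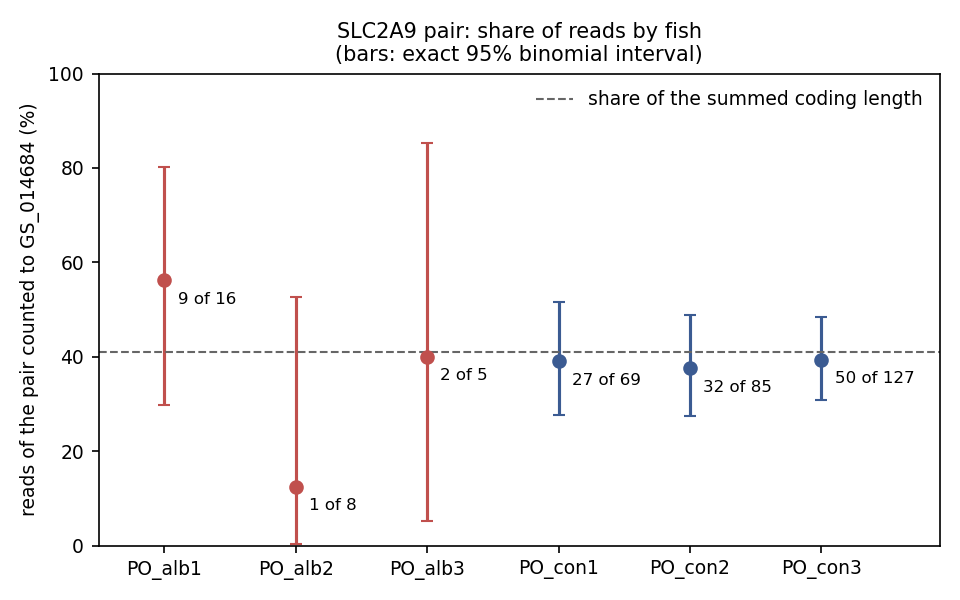
Share of the reads of the SLC2A9 pair counted to GS_014684 in each fish, in percent, with albino fish in red on the left and wild type fish in blue on the right. Bars are exact 95% binomial intervals, the labels give reads on GS_014684 of reads on the pair, and the dashed line is the 41.0% of the summed coding length that belongs to GS_014684. Every interval crosses the line, and the wild type fish lie between 37.6% and 39.4%.

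The within-fish log2 ratio of GS_014685 to GS_014684, with 0.5 added to each count, averaged 0.82 ± 1.36 in albino and 0.66 ± 0.056 in wild type fish (SD, n = 3 each). The difference of 0.17 was smaller than the SD of the albino fish. An exact two-sided permutation test of the difference between group means, over 20 arrangements, gave p = 1. The smallest p it can give is 0.1. Within fish, GS_014685 was above GS_014684 by 0.20 ± 0.72 (SD, n = 6) on the scale of log2(RPKM + 0.1), with the higher value in 5 of 6 fish (exact sign-flip permutation test, p = 0.531). Both differences changed sign without PO_alb2, to -0.58 between groups and -0.062 within fish. Neither test shows that the levels of the pair are equal.

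The IDs numbered on either side of the pair were looked up as well. GS_014683 had 0 counts in every library, so it could show no change. GS_014686 had 11, 17 and 19 counts in PO_alb1, PO_alb2 and PO_alb3 and 14, 20 and 16 counts in PO_con1, PO_con2 and PO_con3 (log2 fold change 0.11, adjusted p = 0.964, edgeR). None of the tested IDs within 2 numbers of XDH, PNP or SLC2A11 was called either. Only 0.910% of all genes tested were called lower and 0.129% higher, so most IDs would not be called. These neighbours by number were chosen after their values were seen, and consecutive numbers alone do not give the distance between genes. In the RefSeq annotation the 2 slc2a9 genes lie on 1 chromosome with 10 coding genes between them. Whether GS_014684 and GS_014685 are separate genes or pieces of a single gene was not tested.

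SLC2A11 showed the widest difference of the 5 genes. It had 13, 1 and 0 counts in PO_alb1, PO_alb2 and PO_alb3, against 284, 429 and 625 counts in PO_con1, PO_con2 and PO_con3. In CPM these were 0.694, 0.0513 and 0 in the albino fish and 16.1, 22.7 and 27.0 in the wild type fish. PO_alb1 held 92.9% of the albino reads, and the lowest wild type fish was still 23.3 times above it. The 0 counts in PO_alb3 allow a level of up to 0.210 CPM, taking 3 counts as the limit. The mean was 0.248 ± 0.387 CPM in albino and 21.9 ± 5.45 CPM in wild type fish (SD, n = 3 each). The log2 fold change fitted by edgeR was -6.34 (SE 0.64, adjusted p = 0.00327, edgeR), which is not the plain ratio of these means. By fold change SLC2A11 was number 26 from the lowest. SLC2A11 was called without each library in turn, at log2 fold changes between -9.25 and -5.81. The value of -9.25 was that without PO_alb1 and rests on 1 albino read, for which the ratio of wild type to albino was 759 with a 95% counting interval of 136 to 29983.

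Compared per length, SLC2A11 was highest of the 5 in wild type skin, at a mean of 16.8 ± 7.06 RPKM. It was followed by GS_014685 at 3.49 ± 1.22 RPKM, GS_014684 at 3.18 ± 1.17 RPKM, PNP at 2.57 ± 0.356 RPKM and XDH at 1.55 ± 0.616 RPKM (SD, n = 3 each). In albino skin the order of the means was PNP at 0.526 ± 0.373 RPKM, GS_014684 at 0.363 ± 0.399 RPKM, GS_014685 at 0.354 ± 0.143 RPKM, SLC2A11 at 0.182 ± 0.284 RPKM and XDH at 0.104 ± 0.0221 RPKM (SD, n = 3 each). By these means SLC2A11 stood first in wild type skin and next to last in albino skin, ahead of XDH. Its albino mean rests on PO_alb1 at 0.510 RPKM, since in PO_alb2 and PO_alb3 SLC2A11 had 0.0377 and 0 RPKM, below XDH at 0.123 and 0.110 RPKM. Neighbours in the albino order differed by less than the larger of their SDs, as did PNP and the SLC2A9 pair in wild type skin. These SDs are between fish, and RPKM carries no TMM scaling. Within each wild type fish PNP was below both IDs of the pair, by least in PO_con1, at 2.17 RPKM against 2.20 for GS_014684 and 2.39 for GS_014685. By mean RPKM in wild type skin, SLC2A11 ranked at the 82.4th percentile of all genes of the table and the other 4 between the 37.1st and the 49.5th.

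Whether the genes changed by different amounts was examined through the within-fish log2 ratio of each of the 10 pairs of genes. The albino and wild type ratios did not overlap in 6 pairs, which were the 4 pairs that include SLC2A11, the pair of XDH and PNP, and the pair of PNP and GS_014684. Pairs with a gene in common are not independent, and the share of such separated pairs over all genes was not computed, so the count is a description. Relative to SLC2A11, the other 4 genes were higher in albino than in wild type fish by 3.82 to 5.16 on the log2 scale. The size of these differences depends on the added 0.5, since SLC2A11 had 13, 1 and 0 counts in PO_alb1, PO_alb2 and PO_alb3. XDH was lower relative to PNP by 1.34 on the log2 scale in albino fish. Each of these 6 reached p = 0.1, the smallest p that an exact permutation test of 3 fish against 3 can give, and 0.167 after adjustment over the 10 pairs, so none could pass.

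The residual level in albino skin differed between fish. As a percentage of the wild type mean, PO_alb1, PO_alb2 and PO_alb3 kept 37.3%, 12.0% and 16.3% for PNP, 26.7%, 2.86% and 7.78% for GS_014684, and 3.16%, 0.234% and 0% for SLC2A11. PO_alb1 was the highest albino fish for these 3 genes, and by a smaller margin for GS_014685, at 13.2%, 12.6% and 7.38%. XDH ran the other way, at 5.34%, 8.21% and 9.79%, with PO_alb1 the lowest. PO_alb1 was thus highest in 4 of the 5 genes, against 29.7% of all genes tested and 43.2% of the 148 genes called lower. For GS_014685 its first place comes from the scaling, since PO_alb1 and PO_alb2 had 7 counts each. PO_alb1 was picked for this comparison along with the 5 genes, so the count is a description and no independent finding.

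The ratio of PO_alb1 to PO_alb2 and PO_alb3 pooled was 2.71 for PNP (exact 95% counting interval 1.14 to 6.74), 5.41 for GS_014684 (1.35 to 31.1) and 23.5 for SLC2A11 (3.52 to 997). For these 3 genes the interval lay above 1. It was 1.26 for GS_014685 (0.408 to 3.68) and 0.601 for XDH (0.171 to 1.74), whose intervals hold 1. Against the mean of the other albino fish, PO_alb1 had a median ratio of 0.999 over all genes tested (quartiles 0.873 to 1.14) and of 1.10 over the genes called lower (0.810 to 1.63). The ratios of PNP, GS_014684 and SLC2A11 to that mean, 2.64, 5.03 and 27.1, were above both upper quartiles, while those of GS_014685 and XDH, 1.31 and 0.593, were not. These quartiles were not matched for read count, and counting error alone spreads the ratios of genes with few reads more widely. The genes called lower do not include PNP or GS_014684, and the call itself disfavours genes with uneven albino fish. A single fish against 2 fish gives no test of a difference between individuals.

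**Figure D3:**
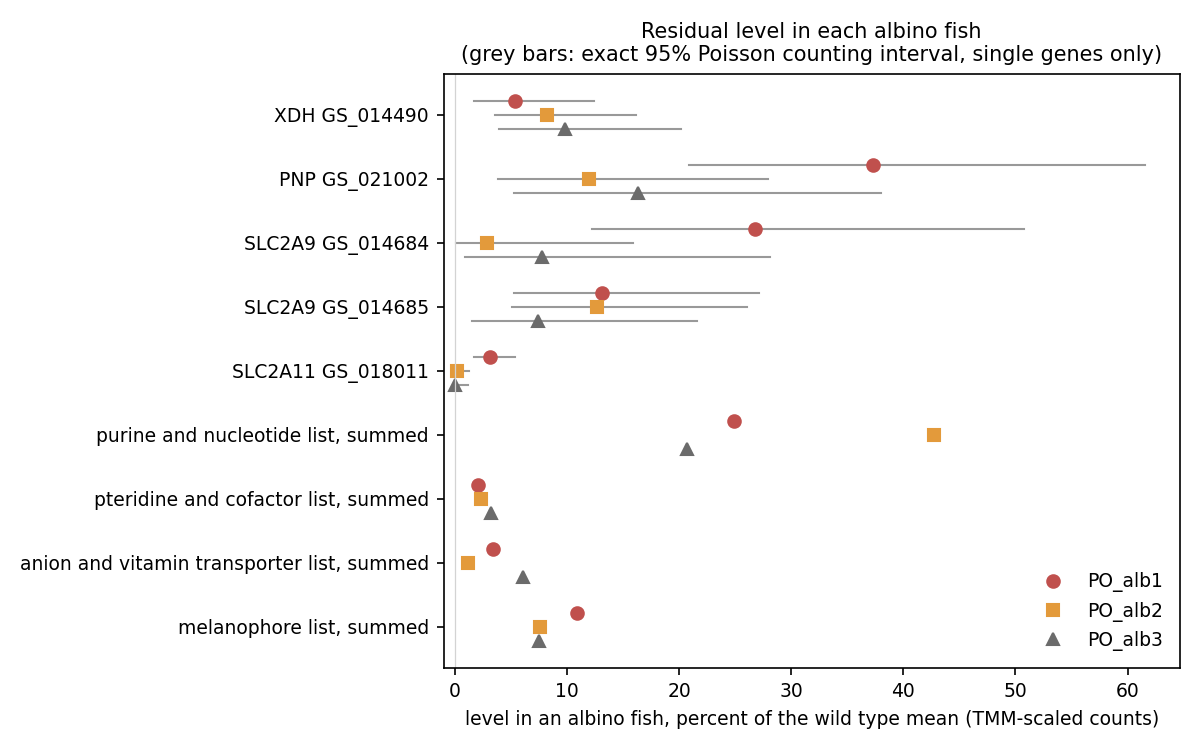
Level of each gene, and of the summed gene lists, in each albino fish as a percentage of the wild type mean. Circles are PO_alb1, squares PO_alb2 and triangles PO_alb3, and grey bars are exact 95% Poisson counting intervals of the single genes. PO_alb1 lies to the right for PNP (37.3%), GS_014684 (26.7%) and SLC2A11 (3.16%), and to the left for XDH (5.34%).

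Even in PO_alb1 each gene was below the wild type fish. Against the 3 wild type fish pooled, PO_alb1 was lower by 2.66-fold for PNP (95% counting interval 1.55 to 4.89), 3.81-fold for GS_014684 (1.93 to 8.54), 7.72-fold for GS_014685 (3.67 to 19.5), 19.1-fold for XDH (8.10 to 59.3) and 32.3-fold for SLC2A11 (18.8 to 60.9). PO_alb2 and PO_alb3 together were lower by 7.20-fold for PNP (3.79 to 15.4), 9.75-fold for GS_014685 (5.18 to 20.7) and 11.5-fold for XDH (6.86 to 20.8). For GS_014684 the ratio of wild type to PO_alb2 and PO_alb3 was 20.6, with an interval of 6.86 to 101, since it rests on 3 reads.

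Among the wild type fish, PO_con3 was highest for XDH, both SLC2A9 IDs and SLC2A11, and PO_con2 for PNP. PO_con3 was also the highest wild type fish in 111 of the 148 genes called lower and in 6175 of the 16260 genes tested. The log2 fold changes of these genes were smaller in size without PO_con3, at -3.48 for XDH, -2.78 for GS_014684, -2.98 for GS_014685 and -6.15 for SLC2A11, and their calls were as with all 6 libraries.

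**Figure D4:**
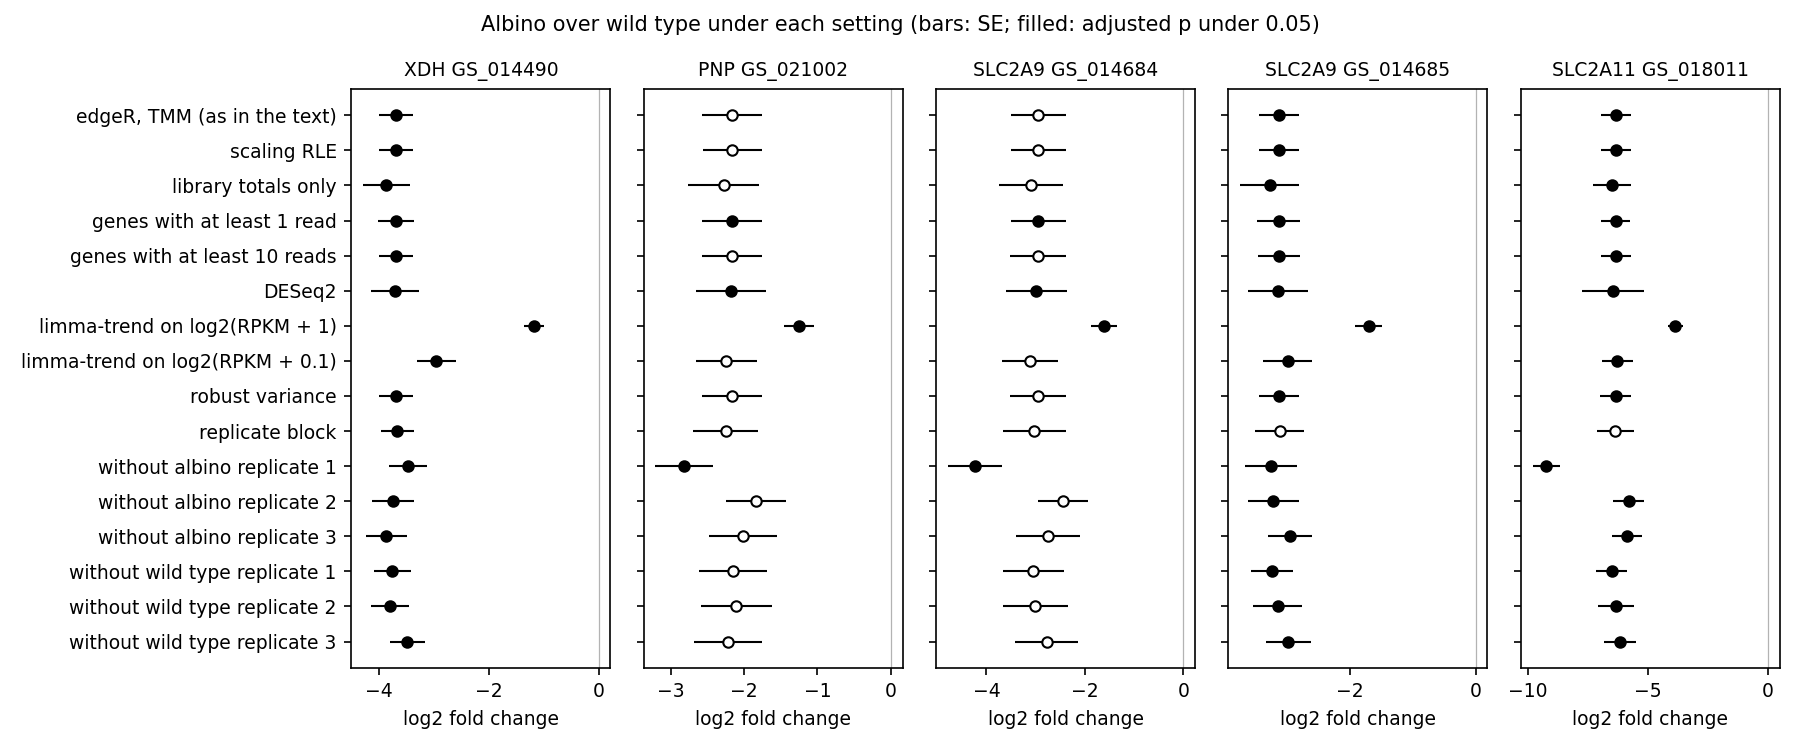
Log2 fold change of albino over wild type for each of the 5 genes under each choice of scaling, filter, test and set of libraries, with SE bars. Filled points have an adjusted p under 0.05. All points lie below 0, and XDH is filled in every row. GS_014685 and SLC2A11 are open in the replicate block row only, and PNP and GS_014684 are open in most rows. The row without albino replicate 1 stands apart for PNP (-2.82), GS_014684 (-4.23) and SLC2A11 (-9.25). The row of limma on log2(RPKM + 1) lies nearest to 0 for each gene, between -3.86 for SLC2A11 and -1.18 for XDH.

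The genes of other steps named in the study's tables were then set beside the 5 genes. These lists were likewise taken from genes that the study had found changed in these fish, so their counts are descriptions. Of the other purine and nucleotide genes, PRTFDC1 (GS_015133), a relative of the salvage enzyme HPRT1, fell in albino skin (log2 fold change -1.90, SE 0.24, adjusted p = 0.0103, edgeR). It had 0.961, 1.13 and 1.26 CPM in PO_alb1, PO_alb2 and PO_alb3 and 3.35, 4.56 and 4.57 CPM in PO_con1, PO_con2 and PO_con3, with PO_alb1 the lowest fish. Its call was lost without PO_alb1 or without PO_con2, when 0 of the 2 genes of this list passed. ENTPD5 (GS_017609), a nucleoside diphosphatase, had a log2 fold change of -1.72 and did not pass (adjusted p = 0.0778, edgeR). Both changes were smaller in size than that of any of the 5 genes.

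Pteridine synthesis starts from the purine nucleotide GTP, and 7 of the 8 genes of the pteridine and cofactor list fell, with a median log2 fold change of -6.85 (the same with the gene at 0 albino counts set to its bound). They included the 4 IDs of GCH1, the enzyme of the first step from GTP, sepiapterin reductase (SPR, GS_007124) and the riboflavin transporter RFT2 (GS_015726). GCH1 GS_005903 had no read in albino fish and 960 reads in wild type fish, and was at least 282-fold lower in albino skin, with 3 counts over the group as the limit. SPR had 7, 1 and 1 counts in PO_alb1, PO_alb2 and PO_alb3 and 218, 225 and 447 counts in PO_con1, PO_con2 and PO_con3, so that most of its albino reads came from PO_alb1, as with SLC2A11. The list did not share this pattern. In the same order of albino fish, RFT2 had 5, 1 and 6 counts and GCH1 GS_005902 had 1, 2 and 5, both highest in PO_alb3. GCH1 GS_008748 had 3, 1 and 2 counts, and GCH1 GS_013228 had 1, 1 and 1. AGMO (GS_007694), an alkylglycerol monooxygenase that uses tetrahydrobiopterin, did not pass, at -1.48 on the log2 scale (adjusted p = 0.051, edgeR). Summed, this list kept 2.09%, 2.36% and 3.25% of the wild type mean in PO_alb1, PO_alb2 and PO_alb3. AGMO alone made up 2.61 of 4.59 CPM in PO_alb1, 3.69 of 5.18 CPM in PO_alb2 and 5.59 of 7.13 CPM in PO_alb3, in the same order as the sums.

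The anion and vitamin transporter list held 5 genes, of which 4 were tested and all 4 fell. The organic anion transporter SLC22A7 (GS_007375) had 7, 2 and 3 counts in PO_alb1, PO_alb2 and PO_alb3 and 73, 83 and 105 counts in PO_con1, PO_con2 and PO_con3. Its fitted log2 fold change was -4.22 (SE 0.36, adjusted p = 0.00144, edgeR). The list also held SLC47A1 (GS_003949), which is named for multidrug and toxin extrusion and not for anions or vitamins. SLC47A1 had 4, 2 and 12 counts in the albino fish and 102, 244 and 187 counts in the wild type fish. PO_alb3 was its highest albino fish. No albino read was counted to the ascorbate transporter SLC23A1 (GS_019288), the citrate transporter SLC13A5 (GS_003950) or the untested scaffold protein gene PDZK1 (GS_019678), which were at least 24.4-fold, 37.0-fold and 10.9-fold lower in albino skin. The median log2 fold change of the tested genes was -6.17 as fitted and -4.62 with the genes at 0 set to their bounds. The number called was 2 without PO_alb1 and 1 without PO_con2. This list kept 3.39%, 1.19% and 6.06% of the wild type mean in PO_alb1, PO_alb2 and PO_alb3.

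Genes of the melanophore, muscle and epidermis were measured in the same libraries. Of 10 melanophore genes 9 fell, with a median log2 fold change of -4.56, and SLC45A2 (GS_012916), a melanosome transporter, did not pass. Their summed level was 6.50 to 9.45 CPM in albino and 72.7 to 96.3 CPM in wild type fish, so that PO_alb1, PO_alb2 and PO_alb3 kept 10.9%, 7.58% and 7.50% of the wild type mean. The channel gene TRPM1 (GS_020582) made up 4.22 of 9.45 CPM in PO_alb1, 2.72 of 6.56 CPM in PO_alb2 and 2.45 of 6.50 CPM in PO_alb3. MREG (GS_004597) added 1.33, 2.67 and 1.47 CPM. The albino sums thus rest largely on TRPM1 and MREG, whose log2 fold changes were -1.95 and -2.19. The defining melanin enzyme tyrosinase (TYR, GS_020975) had 0, 1 and 3 counts in PO_alb1, PO_alb2 and PO_alb3, with none in PO_alb1, whereas of the 2 IDs of TYRP1, a further melanin enzyme, GS_009038 had 23, 3 and 2 counts and was highest in PO_alb1, and GS_012029 had 10, 6 and 11 counts and was highest in PO_alb3. In the same order of fish MLANA (GS_000869) had 25, 7 and 10 counts and SLC45A2 had 8, 2 and 6. OCA2 (GS_017193) had 2, 1 and 1 counts and MITF (GS_002043) had 1, 0 and 0. After scaling these genes, like TRPM1, were highest in PO_alb1. PMEL (GS_003590), at 4, 3 and 4 counts, was highest in PO_alb3, and MREG was highest in PO_alb2. No list of iridophore markers was used.

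The 4 muscle genes summed to 1813 to 2572 CPM in albino and 662 to 1334 CPM in wild type fish, with 1 of 4 called higher and a median log2 fold change of 1.38. Desmin, which was not called (adjusted p = 0.329, edgeR), made up 1723 to 2476 CPM of these sums in albino and 639 to 1290 CPM in wild type fish. The methyltransferase gene METTL21C (GS_015381) was the one called, and the number called was 0 without PO_alb1, PO_alb3, PO_con2 or PO_con3. The 2 KRT13 IDs summed to 447 to 736 CPM in albino and 1259 to 2146 CPM in wild type fish, with 1 of 2 called lower and a median log2 fold change of -1.72. Nearly all of the keratin sums came from GS_014679, which was not called (adjusted p = 0.0763, edgeR). In albino fish PO_alb1 had the lowest muscle sum and the highest keratin sum, and in wild type fish PO_con3 had the lowest muscle sum and the highest keratin sum. The part of these sums in the changes of the 5 genes was not tested.

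**Figure D5:**
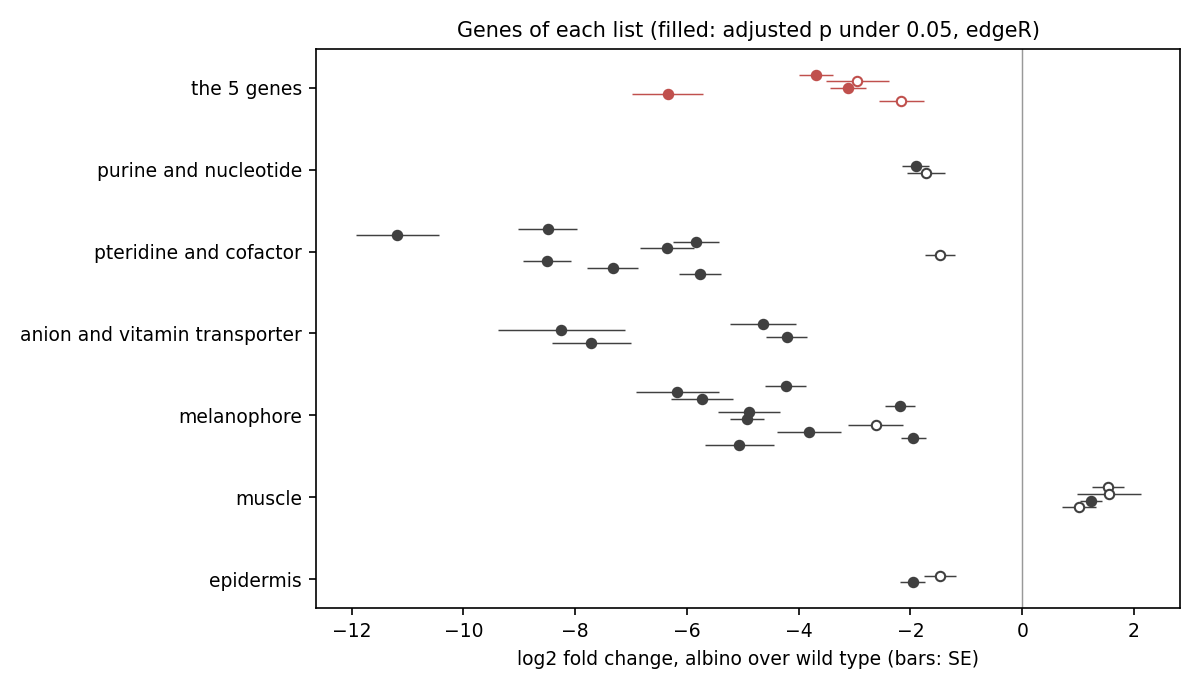
Log2 fold change of albino over wild type for the tested genes of each list, with SE bars, and the 5 genes of purine metabolism and transport in red in the top row. Filled points have an adjusted p under 0.05 (edgeR), and the values of genes with 0 albino counts depend on the fit. The 5 genes lie between -6.34 and -2.16, the pteridine list reaches further down, and the 4 muscle genes lie above 0.

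For each of the 5 genes the most similar named genes were sought by the root mean square difference of log2 profiles over the 6 libraries, each centred on its wild type mean. For XDH they were TRPC2 (0.119), ADCY5 (0.284) and SLC6A13 (0.295), and no unnamed gene was nearer. For PNP they were SMPD3 (0.229), the melanophore channel gene TRPM1 (0.278) and the keratin KRT13 GS_018838 (0.286), again with no unnamed gene nearer. For GS_014684 they were MUCM (0.209), ALK (0.348) and IL1B (0.421), with 1 unnamed gene nearer than ALK and 2 nearer than IL1B. For GS_014685 they were POU2F3 (0.260), MCHR2 (0.269) and MAP6 (0.290), and 1 unnamed gene was nearer than all 3. For SLC2A11 the nearest named genes were FICA (0.564), SPR (0.617) and TMEM130 (0.749), also behind 1 unnamed gene, and all farther off than the third named neighbour of each other gene. No named gene was among the 3 nearest of more than 1 of the 5. The 2 IDs of the SLC2A9 pair lay 0.546 apart, no nearer than GS_014684 to PNP (0.529) and about as far as GS_014685 from XDH (0.547). Names came from the study's tables of genes it found changed, so a changed gene as named neighbour is no finding.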

How the data were processed

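Skin RNA of 3 albino and 3 wild type fish was sequenced, with 1 library per fish. The authors built an index with Bowtie2 2.0.6, aligned paired reads with TopHat2 2.0.9, assembled transcripts with Cufflinks 2.1.1 and counted reads per gene with HTSeq. The genome build and the strand setting are not given in the sources used here. The deposited count table holds raw read counts of 22498 genes, and the deposited RPKM table holds the same counts scaled by the authors to gene length and mapped reads. Small RNA libraries are outside these 2 tables and were not used here. In the paper the small RNA library of PO_alb1 correlated poorly with those of the other albino fish. It was left out of the paper's miRNA analysis, as was that of PO_con1. For the RNA-seq libraries, which are those used here, the paper reports high Pearson correlations between replicates and names none as left out.

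The counts were fitted with edgeR 4.0.16 in R 4.3.3 (filterByExpr with groups, TMM, quasi-likelihood test of albino against wild type with no other term). P-values were adjusted by Benjamini-Hochberg over 16260 genes, with a threshold of 0.05. The test was also run on simulated data with known changes. That run did not single out genes with few albino reads or with an uneven albino fish. The SE is the absolute log2 fold change over the square root of F. The biological coefficient of variation was 21.8%. Exact permutation tests and counting intervals (exact Clopper-Pearson and Poisson, 95%) were computed in Python 3.11.15 with scipy 1.17.1, and plots with matplotlib 3.10.9. Intervals and the limit of 3 counts cover counting error only.

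The genes named are the 5 genes by ID, the gene lists made from names in the study's tables, and for each of the 5 genes the 3 named genes with the nearest profile (prior count 2). The members and lists were chosen with earlier results of these data known. The values of 1 gene of the pteridine and cofactor list are not reported here. Names came from the study's tables, which name 211 genes. Alternatives were RLE scaling, library totals only, filters of at least 1 or 10 reads, a robust variance, DESeq2 1.42.0, limma 3.58.1 on log2(RPKM + 1) or log2(RPKM + 0.1), a block for the replicate number, and each library left out in turn.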

Additional observations from a re-analysis of the deposited data

How the results depend on the processing

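All alternatives kept the log2 fold changes of the 5 genes below 0. XDH was called in each of its 15 alternatives, SLC2A11 in 14 of 15 and GS_014685 in 15 of 16, whereas PNP was called in 4 of 15 and GS_014684 in 5 of 16. Of the 5 genes, 5 were called with at least 1 read, 5 with DESeq2 and 5 with limma on log2(RPKM + 1). PNP then had log2 fold changes of -2.16, -2.17 and -1.25, and GS_014684 of -2.95, -2.98 and -1.62, and of -3.07 with the pair summed, which was chosen after seeing the data. On log2(RPKM + 1), which understates changes of low genes, XDH was at -1.18, GS_014685 at -1.70 and SLC2A11 at -3.86, all called. The genes called lower, 148 in the edgeR fit used here, were 274 with DESeq2 and 89 with limma on log2(RPKM + 1). The genes called higher, 21 in the same edgeR fit, were 90 with DESeq2, 7 with library totals only, 7 with limma on log2(RPKM + 1) and 6 on log2(RPKM + 0.1). With at least 1 read 2 purine and nucleotide genes and 2 muscle genes were called, and with DESeq2 2 and 3. The cause of these differences was not tested.

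When 1 library was left out, 67 to 138 genes were called lower (67 without PO_con2) and 2 to 14 higher. Of the 5 genes 3 to 5 were called, of the melanophore list 7 to 8, of the pteridine and cofactor list 7 to 8, of the anion and vitamin transporter list 1 to 4, of the purine and nucleotide list 0 to 1 and of the muscle list 0 to 1. The log2 fold changes ranged from -2.82 to -1.84 for PNP, from -4.23 to -2.44 for GS_014684, from -3.25 to -2.94 for GS_014685, from -9.25 to -5.81 for SLC2A11 and from -3.86 to -3.47 for XDH. The difference of the SLC2A9 pair ranged from -0.58 to 0.75 between groups and from -0.062 to 0.39 within fish, negative without PO_alb2 only.

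No pairing of the fish by replicate number was seen, as same-numbered deviations correlated at -0.21, 0.19 and -0.50. Deviations within groups of 3 fish cannot exclude such a pairing. With the replicate number as a block, 53 genes were lower and 4 higher, and 1 of the 5 genes was called, XDH at -3.67. The block gave -3.11 for GS_014685 (adjusted p = 0.0567, edgeR), -6.36 for SLC2A11 (adjusted p = 0.0542), -2.25 for PNP and -3.03 for GS_014684. It called 3 melanophore, 1 anion and vitamin transporter, 0 purine and nucleotide and 0 muscle genes. No albino fish correlated best with the wild type fish of its own number, although PO_alb2 had 0.188 with PO_con2 and 0.191 with PO_con3. Depth limits the albino levels, which rest on 12 to 25 reads a gene.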
